A study of Mus musculus with 6 samples.

Results

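Transcripts of 7 subunits of the GABA-A receptor were examined in sorted cells of the subventricular zone of adult mice, the stem cell niche along the lateral ventricles. The genes were Gabra2, Gabra3, Gabra4 and Gabra5 (alpha subunits), Gabrb1 and Gabrb2 (beta subunits) and Gabrg1 (a gamma subunit). They were taken by symbol, were all found among the 55487 genes of the deposited table, and are 7 of its 19 genes for subunits of this receptor family. Their Ensembl identifiers are ENSMUSG00000000560, ENSMUSG00000031343, ENSMUSG00000029211, ENSMUSG00000055078, ENSMUSG00000029212, ENSMUSG00000007653 and ENSMUSG00000001260 in the same order. Knockout mice were E2F1(-/-);E2F3(F/F), lacking both copies of the cell cycle transcription factor gene E2f1 and carrying 2 floxed copies of E2f3. Heterozygous mice were E2F1(+/-);E2F3(F/+), so the controls had lost 1 copy of E2f1 and carried 1 floxed copy of E2f3. Both groups carried NestinCreERT2, a tamoxifen-inducible recombinase driven by the Nestin promoter of neural stem cells, and the R26;EYFP reporter, on a mixed C57BL/6;Sv/129;FVB/N background. Mice aged 6 to 10 weeks at the start were gavaged with tamoxifen at 200 mg/kg per day for 5 days, and cells with the yellow reporter were sorted 10 days after the last dose. Each group had 3 libraries, named A, B and C and given in that order wherever 3 values stand together, each from several pooled mice, so the spread between libraries is a spread between pools. The E2f1 genotype is given with no floxed allele, so its loss is not limited to Nestin-expressing cells.

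GABA-A receptors are chloride channels opened by the transmitter GABA and are built from a ring of subunits, most often alpha and beta subunits with 1 gamma subunit. The alpha subunit shapes GABA affinity and drug sensitivity, the beta subunit is needed for assembly and the gamma subunit for synaptic placement and the classical benzodiazepine site. In the subventricular zone, GABA released by neuroblasts is known to act on receptors of the neighbouring stem cells and to slow their division. Immature cells keep chloride high through the cotransporter encoded by Slc12a2, so that GABA depolarizes them.

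The 7 genes fall into 4 clusters of receptor genes in the GENCODE M21 annotation of GRCm38. Gabrg1 (70751047 to 70842617), Gabra2 (70957597 to 71095849) and Gabra4 (71569749 to 71658308) lie on the minus strand of chromosome 5 and Gabrb1 (71658113 to 72149037) on its plus strand. Gabrb2 lies on chromosome 11 (42419757 to 42629028, plus strand) beside Gabra6. Gabra5 lies on chromosome 7 (57407672 to 57510059, minus strand) beside Gabrg3, and Gabra3 on the X chromosome (72432681 to 72656848, minus strand) between Gabre and Gabrq. Gabra4 and Gabrb1 stand head to head and share 46 bases of exon, 0.756% of the exon length of Gabra4 and 0.332% of that of Gabrb1. Gabra5 shares 148 bases of exon (4.98%) with the antisense transcript Gm9962, which averaged 10.2 normalized reads against 26.8 for Gabra5. The strand setting of the counting is not given in the sources used here, so reads in these shared stretches cannot be assigned to 1 gene.

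RefSeq (GRCm38.p6) gave 11 start-site windows for the 7 genes, each with 250 bases before and 50 bases after the start. The 250 bases before the start are shown for Gabrg1 and Gabra2, neighbours on chromosome 5 that both averaged higher in knockout libraries, and for the first start of Gabrb2, a gene that was lower in every knockout library than in any heterozygous one. Capitals mark CG dinucleotides, which numbered 1, 18 and 8 in that order.
Gabrg1 chr5:70842618-70842867, minus strand: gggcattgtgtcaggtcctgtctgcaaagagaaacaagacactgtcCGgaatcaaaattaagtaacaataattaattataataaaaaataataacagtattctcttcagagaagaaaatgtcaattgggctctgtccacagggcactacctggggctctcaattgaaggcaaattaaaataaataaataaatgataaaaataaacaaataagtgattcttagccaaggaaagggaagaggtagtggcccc
Gabra2 chr5:71095850-71096099, minus strand: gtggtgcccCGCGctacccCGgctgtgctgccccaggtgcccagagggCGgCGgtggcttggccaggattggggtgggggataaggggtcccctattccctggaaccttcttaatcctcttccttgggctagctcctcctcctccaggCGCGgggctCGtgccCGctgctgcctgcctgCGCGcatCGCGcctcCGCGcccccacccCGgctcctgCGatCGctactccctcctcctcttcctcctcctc
Gabrb2 chr11:42420190-42420439, plus strand: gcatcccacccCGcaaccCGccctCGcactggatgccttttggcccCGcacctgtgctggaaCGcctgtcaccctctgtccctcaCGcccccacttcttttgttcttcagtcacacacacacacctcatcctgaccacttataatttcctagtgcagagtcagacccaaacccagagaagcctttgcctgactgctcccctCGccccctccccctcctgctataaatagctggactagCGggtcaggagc
The letters of an E2F site (TTTCCCGC, TTTCGCGC, TTTGCCGC and TTTGGCGC, both strands) were found in 0 of the 11 windows. Over all genes with a window, 2.61% held at least 1 match, and a count of 0 in 7 genes lies near that share. No other spelling was searched.

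Of the targeted genes, E2f1 had 375, 483 and 516 normalized reads in the knockout libraries, against 1152, 1388 and 1030 in the heterozygous ones, and fell by 1.38 on the log2 scale (limma adjusted p = 0.00559). Reads of E2f1 thus remained in knockout libraries, and counts over the whole gene do not show which part of it they came from. E2f3 had 324, 231 and 245 in the knockout libraries, against 293, 205 and 253 in the heterozygous ones (adjusted p = 0.845), and reads counted over the whole gene do not report on excision of the floxed part. Reads assigned to genes ranged from 19798675 to 25982361 a library.

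Markers of the cell types in the sort moved with genotype and library, and their part in the subunit values was not tested. In these bulk libraries, fewer cells of a type and less RNA per cell cannot be told apart. The marker counts below stand beside 7.23% of all tested genes that rose and 8.59% that fell (limma). Of 18 neuroblast markers 18 fell (limma), with summed levels of 19278, 18814 and 24415 normalized reads in the knockout libraries, against 147644, 168522 and 102250 in the heterozygous ones. Gabrb2 and Gabra3 were, like this sum, highest in C among knockout libraries, but among heterozygous libraries the sum was lowest in C while Gabra3 was highest there and Gabrb2 was highest in A. Among 18 genes that mark quiescent stem cells or astrocytes 4 rose and 0 fell, with sums of 934319, 1260742 and 1359412 in the knockout libraries, against 680723, 655790 and 953190 in the heterozygous ones. Gabrb1 was likewise lower in knockout A than in B and C and highest in C among heterozygous libraries. Gabrg1 had the order of this sum over the libraries of each group. Gabra4 had it over the knockout libraries, but among heterozygous libraries Gabra4 was highest in A and the sum in C. Ependymal markers (10 of 14 rose) summed to 117335, 75908 and 32081 in the knockout libraries, against 20581 to 24531 in heterozygous libraries. Endothelial and mural markers (1 of 13 rose) summed to 52795, 34307 and 14620 in the knockout libraries, against 12391 to 20466 in heterozygous libraries, and microglial and macrophage markers (0 of 11 tested passed) to 14388, 4080 and 4292 in the knockout libraries, against 2843 to 9782 in heterozygous libraries. Knockout A, where Gabra4 and Gabrg1 were lowest, had the most signal of these other cell types. Among knockout libraries it also had the lowest sum of quiescent stem cell and astrocyte markers. That sum was still above those of heterozygous A and B, where Gabra4 and Gabrg1 were higher than in knockout A. Of 14 oligodendrocyte lineage markers 0 passed, and their sums were 98055, 78570 and 98377 in the knockout libraries, against 50587, 72046 and 74615 in the heterozygous ones. Of 12 markers of activated stem cells and transit-amplifying cells 8 fell, with sums of 32366 to 58632 in knockout and 91647 to 142708 in heterozygous libraries. Of 14 tested striatal and mature neuron markers 3 rose and 5 fell, with sums of 3841 to 4504 in knockout and 4385 to 6114 in heterozygous libraries, and 3 of the 16 listed, Slc17a7 and Drd1 among them, were at 0 in at least 1 library.

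None of the 7 genes passed the test of knockout against heterozygous libraries. The log2 differences were positive for Gabra2, Gabra4, Gabra5, Gabrb1 and Gabrg1 and negative for Gabra3 and Gabrb2, with a median of 0.53 against 0.05 over all genes tested. With limma on log2(normalized reads + 1) and Benjamini-Hochberg adjustment over 18227 genes, 0 of 7 had an adjusted p under 0.05, where 15.8% of all tested genes did (7.23% higher and 8.59% lower in knockout). With edgeR on the recovered reads 0 of 7 passed, against 16.0% of its tested genes. An unadjusted limma p under 0.05 was found for 2 of 7 (Gabrb1 and Gabrb2), against 33.4% of tested genes. DESeq2 on the recovered reads called 1 of them, Gabrb1, and the authors' deposited table also called only Gabrb1 among the 7 (log2 difference 0.80, adjusted p = 0.0164), with 14.3% of its genes called. The 3 knockout libraries did not overlap the 3 heterozygous ones for 3 of 7 genes (Gabrb1 and Gabra2 higher, Gabrb2 lower), against 38.7% of tested genes (18.5% higher and 20.2% lower), so the members' share is near the background.

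**Figure D1:**
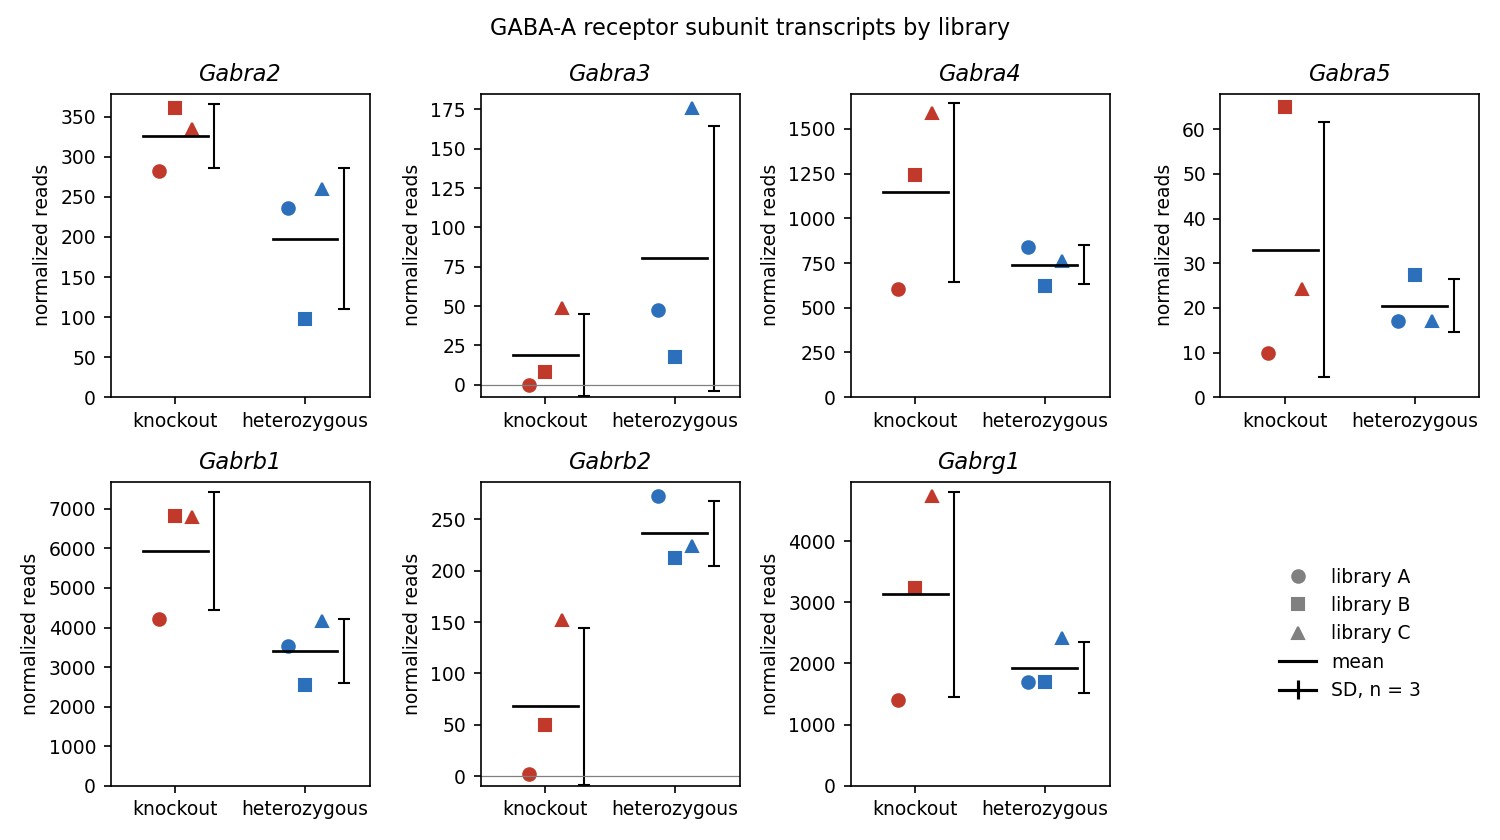
Normalized reads of the 7 subunit genes in each library (y axis, linear, 1 panel a gene), knockout left of heterozygous. Symbols mark libraries A, B and C, lines the mean and bars the SD of 3 libraries. Gabrb1 and Gabra2 lie higher and Gabrb2 lower in all 3 knockout libraries than in any heterozygous one, while knockout A lies apart from knockout B and C for Gabra4 and Gabrg1.

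Of the beta subunits, Gabrb1 was the most highly counted of the 7 genes. It had 4214, 6812 and 6796 normalized reads in the knockout libraries, against 3535, 2549 and 4160 in the heterozygous ones. The groups did not overlap, but knockout A stood only just above heterozygous C. The means were 5941 ± 1495 in knockout and 3415 ± 812 in heterozygous libraries (SD, n = 3 each). The log2 difference was 0.79 ± 0.25 (SE), with a 95% interval of 0.22 to 1.37 and a limma adjusted p = 0.0620 (edgeR adjusted p = 0.0597). Its call turns on the setting: without knockout A the difference was 1.02 (adjusted p = 0.0255), and with any other library left out it was 0.60 to 0.95 (adjusted p = 0.0598 to 0.219).

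Gabrb2, a beta subunit common in mature neurons, averaged lower in knockout libraries. It had 2.19, 49.9 and 152 normalized reads in the knockout libraries, against 272, 213 and 224 in the heterozygous ones. Knockout A held 2 reads, and even knockout C lay below every heterozygous library, so the groups did not overlap although the knockout libraries were far apart. The means were 67.9 ± 76.4 in knockout and 236 ± 31.8 in heterozygous libraries. The log2 difference was -3.02 ± 1.13 (SE), with a 95% interval of -5.56 to -0.48 and a limma adjusted p = 0.0967. The value was -1.42 without knockout A (adjusted p = 0.0771) and -4.21 without knockout C (adjusted p = 0.00604), and edgeR gave -1.78 with all libraries (adjusted p = 0.208).

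Gabrg1, a gamma subunit also known from glial cells, came next to Gabrb1 in reads. It had 1405, 3239 and 4743 normalized reads in the knockout libraries, against 1698, 1694 and 2409 in the heterozygous ones. Knockout A was the lowest of the 6 libraries and knockout C the highest, so the groups overlapped. Its log2 difference was 0.55 ± 0.39 (SE), with a 95% interval of -0.32 to 1.42 and a limma adjusted p = 0.351. Without knockout A it was 1.04 (adjusted p = 0.0295), and without knockout C it was 0.16 (adjusted p = 0.751).

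Of the alpha subunits, Gabra4, which forms extrasynaptic receptors insensitive to diazepam in several brain regions, had the most reads. Its values were 604, 1241 and 1592 normalized reads in the knockout libraries, against 838, 621 and 763 in the heterozygous ones. As for Gabrg1, knockout A was the lowest library and knockout C the highest. Here the log2 difference was 0.53 ± 0.34 (SE), with a 95% interval of -0.22 to 1.28 and a limma adjusted p = 0.294. It was 0.93 without knockout A (adjusted p = 0.0356) and 0.24 without knockout C (adjusted p = 0.617).

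Gabra2, a subunit of synaptic receptors that takes part in the anxiety-reducing effect of benzodiazepines, had 283, 361 and 335 normalized reads in the knockout libraries, against 236, 97.0 and 260 in the heterozygous ones. All 3 knockout libraries were higher, and heterozygous B was far below the other libraries. The log2 difference was 0.84 ± 0.39 (SE), with a 95% interval of -0.03 to 1.71 and a limma adjusted p = 0.163. Without heterozygous B it was 0.39 (adjusted p = 0.379).

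Gabra3 and Gabra5, both alpha subunits with restricted expression in adult brain, were counted rarely. Gabra3 had 0, 8.01 and 48.6 normalized reads in the knockout libraries, against 47.4, 17.6 and 176 in the heterozygous ones. Library C was the highest of its group in both genotypes, and the groups overlapped. For Gabra3 the log2 difference was -2.83 ± 1.34 (SE), with a 95% interval of -5.83 to 0.17 and a limma adjusted p = 0.171, and it rests in part on the knockout library at 0. It was -1.36 without knockout A (adjusted p = 0.394), -4.18 without knockout C (adjusted p = 0.0222) and -1.97 without heterozygous C (adjusted p = 0.392). On recovered reads it was -2.10 with edgeR (adjusted p = 0.273) and -2.09 with DESeq2 (adjusted p = 0.452). Gabra5 had 9.87, 65.0 and 24.3 normalized reads in the knockout libraries, against 17.2, 27.4 and 17.0 in the heterozygous ones. Knockout B lay above the heterozygous range, knockout A below it and knockout C within it. For Gabra5 the log2 difference was 0.32 ± 0.73 (SE), with a 95% interval of -1.31 to 1.96 and a limma adjusted p = 0.787, and the sign turned to -0.34 without knockout B (adjusted p = 0.826). With edgeR it was 0.73 (adjusted p = 0.519). At 9 to 73 reads a library, a difference of 2-fold in Gabra5 in either direction lies inside the limma interval.

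**Figure D2:**
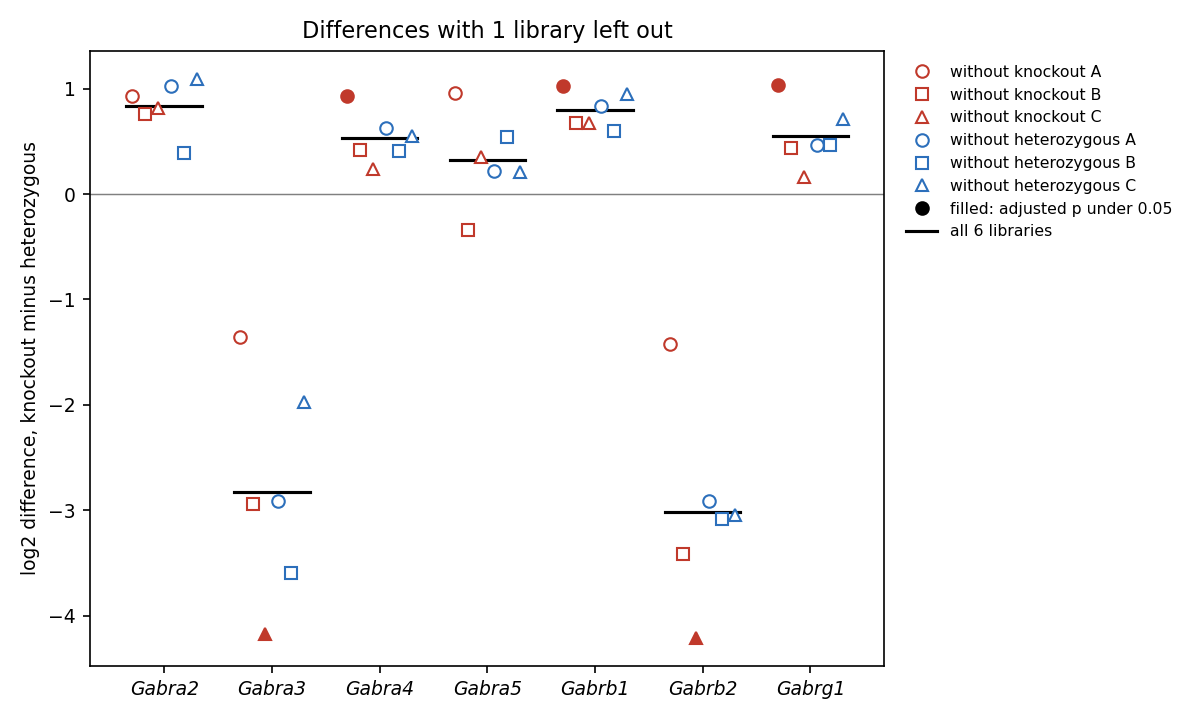
Log2 difference (y axis, knockout minus heterozygous) of each of the 7 genes with 1 library left out, knockout libraries in red and heterozygous ones in blue. The black line is the value with all 6 libraries and filled symbols have a limma adjusted p under 0.05: Gabra4, Gabrb1 and Gabrg1 without knockout A, Gabra3 and Gabrb2 without knockout C. Gabra5 changes sign without knockout B.

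Of 12 other receptor subunit genes 7 were tested, of which 2 fell and 0 rose (limma), a share of 28.6% against 15.8% of all tested genes. Limma without the trend or leaving out knockout B, heterozygous A or heterozygous B left 1 that fell. In these settings 719, 590, 579 and 470 of all tested genes fell, against 1565 in the main test. Gabrg3, a gamma subunit, had 442, 598 and 879 normalized reads in the knockout libraries, against 387, 161 and 367 in the heterozygous ones. All 3 knockout libraries were higher, with a log2 difference of 1.11 ± 0.39 (SE, limma adjusted p = 0.0777), and DESeq2 gave 1.07 (adjusted p = 0.0299). Without heterozygous B the limma value was 0.70 (adjusted p = 0.218). Gabre, the epsilon subunit, had 46.1, 17.8 and 14.2 normalized reads in the knockout libraries, against 5.04, 0 and 12.99 in the heterozygous ones, with a log2 difference of 2.44 ± 1.05 (SE, limma adjusted p = 0.140), which was 1.37 without heterozygous B and 3.27 without heterozygous C. The rho subunit genes Gabrr1 and Gabrr2 had log2 differences of 0.76 and -0.66 (limma adjusted p = 0.534 and 0.494). Leaving out 1 library gave 0.19 (without knockout B) to 1.68 (without knockout C) for Gabrr1, and -1.11 (without knockout B) to -0.04 (without knockout A) for Gabrr2. Gabrd, Gabrq, Gabrr3, Gabra6 and Gabrp averaged below 10 normalized reads and were not tested.

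**Figure D3:**
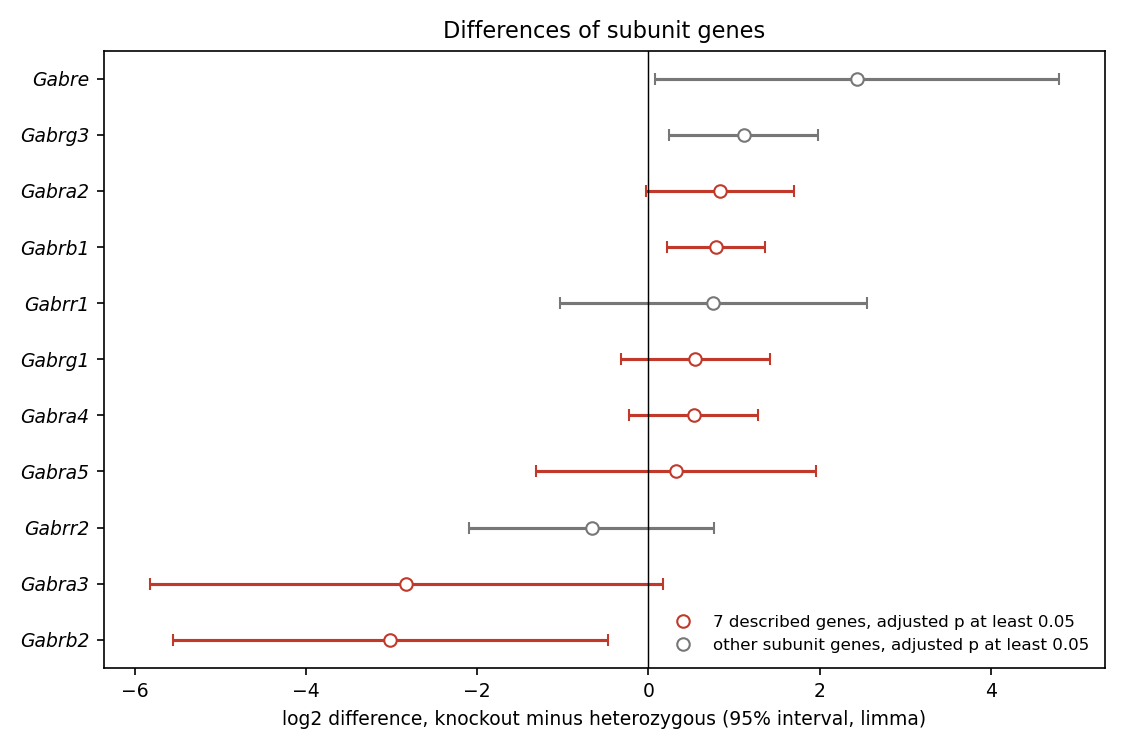
Log2 differences (x axis, knockout minus heterozygous) of the 7 described genes (red) and 4 other subunit genes (grey), with 95% intervals from limma. Every gene drawn has a limma adjusted p of at least 0.05, and the intervals of Gabra3 and Gabrb2 are the widest of the 7.

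Levels of different genes were compared as normalized reads per kilobase of exon. In knockout libraries Gabrb1 averaged 429 ± 108, Gabrg1 398 ± 212, Gabra4 188 ± 82.3, Gabra2 42.7 ± 5.18, Gabra5 11.1 ± 9.61, Gabrb2 10.7 ± 12.02 and Gabra3 4.81 ± 6.64 per kilobase (SD, n = 3). In heterozygous libraries Gabrb1 averaged 247 ± 58.7, Gabrg1 246 ± 52.3, Gabra4 122 ± 18.1, Gabrb2 37.2 ± 4.99, Gabra2 25.9 ± 11.5, Gabra3 20.5 ± 21.4 and Gabra5 6.90 ± 2.01 per kilobase. Gabrb1 and Gabrg1 overlapped in both genotypes, so their order is not set. The lengths used were all annotated exons joined, 13838 bases for Gabrb1 and 7869 for Gabrg1. Their longest single transcripts have 13737 and 4771 bases, so levels and shares of 1 gene against another also depend on the length chosen. Gabra4 stood below Gabrg1 in every library of both genotypes, though across knockout libraries their ranges overlapped. The step from Gabra4 to the next gene was clear in both, with Gabra2 next in knockout and Gabrb2 next in heterozygous libraries. The 3 lowest genes overlapped one another in range in knockout libraries, as did Gabrb2, Gabra2 and Gabra3 in heterozygous libraries.

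The share of subunit transcripts that came from the 7 genes was higher in knockout libraries. The 7 genes held 80.9%, 85.4% and 86.0% of the summed per-kilobase signal of all 19 subunit genes in the knockout libraries, against 62.9%, 59.0% and 69.3% in the heterozygous ones. The groups did not overlap, with p = 0.1 in an exact two-sided permutation test, the smallest p that 3 against 3 libraries allow. The signal of the 7 genes itself overlapped between groups, at 623, 1187 and 1444 per kilobase in the knockout libraries, against 701, 561 and 852 in the heterozygous ones (exact p = 0.3). The signal of the other 12 genes did not overlap, at 148, 202 and 234 per kilobase in the knockout libraries, against 413, 390 and 377 in the heterozygous ones (exact p = 0.1). Gabrb1 held 39.5%, 35.4% and 29.3% of the signal of all subunit genes in the knockout libraries, against 22.9%, 19.4% and 24.5% in the heterozygous ones (exact p = 0.1). Gabrb2 held 0.0448%, 0.564% and 1.42% in the knockout libraries, against 3.85%, 3.51% and 2.86% in the heterozygous ones (exact p = 0.1). For Gabrb1 every knockout share was above, and for Gabrb2 every knockout share below, the heterozygous ones. Gabra4 held 12.9%, 14.7% and 15.6% in the knockout libraries, against 12.4%, 10.7% and 10.2% in the heterozygous ones, also without overlap (exact p = 0.1). Its own level overlapped between groups, and so did its share of the alpha subunits alone. That was 70.4%, 73.3% and 79.1% in the knockout libraries, against 73.5%, 78.4% and 57.4% in the heterozygous ones (exact p = 0.7). The shares of Gabrb1 and Gabrb2 among beta subunits and of Gabrg1 among gamma subunits did not overlap (exact p = 0.1 for each). Mean class shares in knockout against heterozygous libraries were 87.4% and 50.1% for Gabrb1, 1.81% and 7.63% for Gabrb2, and 84.3% and 63.9% for Gabrg1. A class share also depends on the other genes of its class, and the level of Gabrg1 itself overlapped between groups. Of the signal of all subunit genes, Gabrg1 held 23.2%, 29.6% and 35.9% in the knockout libraries, against 19.4%, 22.6% and 24.9% in the heterozygous ones, with overlap (exact p = 0.2). Over the 17 subunits with reads, no share passed adjustment (smallest Benjamini-Hochberg adjusted exact p = 0.283), which 3 against 3 libraries could not reach.

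**Figure D4:**
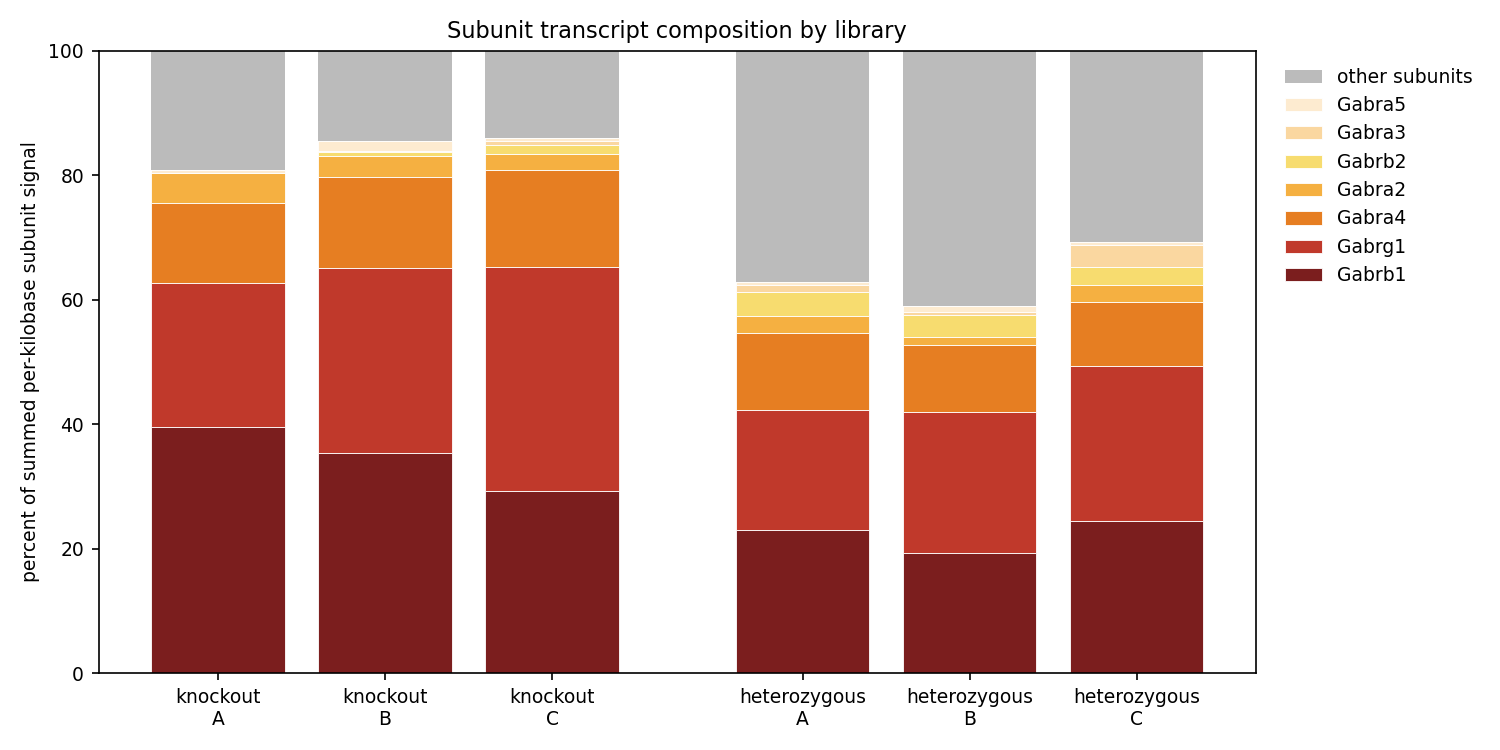
Percent of the summed per-kilobase signal of all subunit genes (y axis) held by each gene in each library, the 7 described genes in colour and all other subunits in grey. The coloured part spans 80.9% to 86.0% in knockout and 59.0% to 69.3% in heterozygous libraries.

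The genes with the most similar pattern over the 6 libraries were found by Pearson correlation of log2 values among 12789 genes, given as a measure of likeness only, since the libraries share genotype and cell make-up. They were Tmem47 and Lfng for Gabrb1 (r = 0.997 for both), Rbl1 and Hltf for Gabrb2 (0.998 and 0.995), and Omg and Plxnc1 for Gabrg1 (0.997 and 0.992). For the alpha subunits they were Pygm and Frmpd1 for Gabra2 (0.998 and 0.996), Cpsf7 and Zfp202 for Gabra3 (0.990 and 0.980), Lgi4 and Mccc2 for Gabra4 (0.993 and 0.992), and Mks1 and Minpp1 for Gabra5 (0.970 and 0.955). Such r values are high by selection from 12789 genes over only 6 libraries, and r does not compare the size of changes. Minpp1 ranged from 1159 to 1270 normalized reads, while Gabra5 ranged from 3.32 to 21.9 per kilobase. None of these 14 genes passed the test between genotypes, with limma adjusted p of 0.0535 (Lfng) to 0.978 (Minpp1). Having been chosen for likeness to genes that did not pass, they give no separate result here. Among the 7 genes themselves the most alike pairs were Gabra4 with Gabrg1 (r = 0.941), Gabra3 with Gabrb2 (0.910) and Gabra2 with Gabrb1 (0.891). Gabra3 and Gabrb2 were both at or near 0 in knockout A. On the log2 scale that 1 library weighs heavily in their r values, with each other and with other genes.

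Among genes listed for GABA supply, the called falls included both synthesis enzymes, and the called rises were a taurine transporter and a monoamine oxidase gene. Of 10 tested genes of GABA synthesis, breakdown and transport 3 fell and 2 rose, against 15.8% of all tested genes in either direction. Gad1 and Gad2, the GABA-synthesizing enzymes, fell by 3.06 and 3.53 on the log2 scale (limma adjusted p = 0.000886 and 0.000621), and the vesicular transporter gene Slc32a1 fell by 2.71 (0.0254). The 18 neuroblast markers, all of which fell, had a median log2 difference of -3.12, and their part in these falls was not tested. Slc6a6, a transporter of taurine, and Maob, a monoamine oxidase, rose by 1.08 and 0.85 (0.0205 and 0.0245). The value for Slc6a11, an astrocyte GABA transporter, was 1.06 (adjusted p = 0.0935). Of 10 genes for chloride and bicarbonate handling 1 rose, the carbonic anhydrase gene Car2 (0.80, adjusted p = 0.0227), a share of 10% against 15.8% of all tested genes. Log2 differences were 0.47 for the chloride importer gene Slc12a2 (adjusted p = 0.231) and 0.23 for the exporter gene Slc12a5 (0.750). Median log2 differences were 0.47 over the genes of GABA supply and 0.11 over those of chloride handling, against 0.05 over all genes tested. The rises changed with single libraries, and so did those over all tested genes, which numbered 1318 in the main test. Without knockout B 0 rose in GABA supply and 111 over all genes, and without heterozygous B 0 and 166. Without heterozygous A the counts were 1 and 323, and without knockout A 4 and 911. The rise in chloride handling was lost without knockout B or any 1 heterozygous library, and without heterozygous C 952 rose over all genes.

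Among 26 genes of receptor assembly, anchoring and trafficking 4 fell and 2 rose (23.1%, against 15.8% of all tested genes). The kinesin motor genes Kif5c and Kif5a fell by 1.81 and 1.66 on the log2 scale (limma adjusted p = 0.00488 and 0.0148), the synaptic adhesion gene Slitrk3 by 2.59 (0.00995) and Plcl1, whose product binds receptor subunits, by 1.18 (0.0133). Dbi, which encodes a peptide that acts at the benzodiazepine site, rose by 1.23 (0.0226), with 77862, 55575 and 36464 normalized reads in the knockout libraries, against 22814, 20753 and 25947 in the heterozygous ones. Over the knockout libraries Dbi had the order of the ependymal and of the endothelial and mural sums. Over the heterozygous libraries Dbi was highest in C, where the endothelial and mural sum was also highest and the ependymal sum was lowest. Insyn1, a component of inhibitory synapses, rose by 1.37 (0.0333), while the value for Gphn, the scaffold gephyrin, was 0.01 (adjusted p = 0.986). Of 6 genes of the GABA-B receptor, the G protein-coupled GABA receptor, 1 rose, the auxiliary subunit gene Kctd8 (2.29, adjusted p = 0.0384), a share of 16.7% against 15.8% of all tested genes. Gabbr1 and Gabbr2 had log2 differences of 0.45 and 0.76 (adjusted p = 0.176 and 0.192). The median was -0.29 over the assembly genes and 0.60 over the GABA-B genes. Without heterozygous A or heterozygous B 1 assembly gene fell and 0 rose, without knockout B 0 rose and without knockout C 1 rose. Of the GABA-B genes 2 rose without knockout C and 0 with any other library left out. Over all tested genes 1565 fell in the main test, against 579 without heterozygous A and 470 without heterozygous B. Rises over all tested genes numbered 111 without knockout B and 1964 without knockout C, against 1318 in the main test.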

How the data were processed

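RNA was sequenced in 6 libraries, 3 per genotype. HISAT2, featureCounts, Subread, DESeq2 and GRCm38 appear in the submitters' processing notes, without versions. The deposited table holds, per gene, a normalized signal for each library, its mean signal, and the authors' log2 fold change, scores (Wald statistic and test weight) and p-values, per the file headers. Dividing each column by its smallest step returned whole reads for 100% of values (within 0.001 reads), which were used as recovered reads. The main test was limma 3.58.1 (R 4.3.3) with a mean-variance trend on log2(value + 1), run where the mean reached 10. Limma was chosen since the table held normalized values rather than raw counts. Tests were two-sided with Benjamini-Hochberg adjustment at 0.05 over all genes tested. The pseudocount pulls ratios of low values towards 0 within a library pair, but a difference of mean logs gives a library near 0 more weight than a ratio of mean counts does, so limma values of rarely counted genes can exceed those of count models. Alternatives were edgeR 4.0.16 (quasi-likelihood test, 2921 genes called) and DESeq2 1.42.0 on recovered reads, other pseudocounts, filters and scalings, a block for the library letter, and leaving out each library. No 2 libraries were duplicates (lowest chi-square per degree of freedom 46.9). limma and edgeR were checked on simulated data. The labels do not tie libraries to named mice, so p-values measure the spread between pools. Exon lengths came from GENCODE M21 and promoter windows from RefSeq. Genes named were the 7 subunits, other subunits with a mean of at least 10, the called genes of each pathway list (up to 4 by smallest p), the 2 genes most like each subunit and the targeted genes; other pathway genes were named after their values were seen. Some genes that this rule names are not reported here. Members and lists were chosen with earlier results of these data known.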

Additional observations from a re-analysis of the deposited data

How the results depend on the processing

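Leaving out 1 library at a time, the log2 difference ranged from 0.39 to 1.09 for Gabra2, -4.18 to -1.36 for Gabra3, 0.24 to 0.93 for Gabra4, -0.34 to 0.96 for Gabra5, 0.60 to 1.02 for Gabrb1, -4.21 to -1.42 for Gabrb2 and 0.16 to 1.04 for Gabrg1. Members called numbered 0 to 3 higher and 0 to 2 lower, all tested genes 111 to 1964 higher and 470 to 2057 lower, chloride genes 0 to 1 higher, GABA supply genes 0 to 4 higher, GABA-B genes 0 to 2 higher, other subunits 1 to 2 lower, and assembly genes 0 to 2 higher and 1 to 5 lower. Gabrb1 passed, as 1 member higher, with DESeq2 (0.80, adjusted p = 0.0263), with a mean of at least 50 (0.79, adjusted p = 0.0487), which left Gabra3 and Gabra5 untested, and with quantile normalization (0.89, adjusted p = 0.0417). With the library letter as a replicate block Gabrb2 was -3.02 (adjusted p = 0.0463), 1 member lower, and 2310 genes passed; letters were not taken as pairs, since deviations of same-letter libraries correlated at -0.0719, 0.0213 and -0.103. DESeq2 called 2264 genes higher and 1 other subunit higher (Gabrg3). Limma without the trend called 317 genes higher and 719 lower, 0 chloride, 0 GABA supply and 0 GABA-B genes higher, 1 other subunit lower and 1 assembly gene higher. Quantile normalization and the replicate block each left 1 assembly gene higher, and testing without a filter left 0 GABA-B genes higher. Of called genes 45.7% were higher in the main test, 52.8% with upper-quartile scaling and 30.6% without the trend. The cause of these changes was not tested. Rarely counted genes are limited by depth: Gabra3 had 0 to 176, Gabra5 9 to 73 and Gabrb2 2 to 270 reads a library.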
